A study of Mus musculus with 20 samples.

Results

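The genes described here are the cytosolic ribosomal protein genes of mouse prostate cancer cells sorted from bone metastases. They were chosen by symbol alone, as the genes whose symbol starts with Rpl or Rps and a digit, together with Rpsa, Rplp0, Rplp1 and Rplp2. Kinases, binding proteins, annotated pseudogenes and symbols ending in l were left out. This rule took 82 of the 16733 named genes in the table shared by the Naive and Resist libraries, 49 of the large subunit and 33 of the small subunit. It also took the paralogs Rpl22l1 and Rpl7l1 and the retrogenes Rpl37rt, Rps27rt and Rps23rg1, whose names fit it by letter. Of the 82 genes, 81 averaged at least 1 FPKM and were tested, and Rps23rg1 lay below that filter, at 0 to 0.15 FPKM in the 10 naive and Resist libraries.

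The cells were MycCaP-Bo, a bone-homing line selected in vivo from the Myc-driven, androgen-dependent MycCaP line and labelled with the fluorescent protein iRFP and luciferase. It was injected into the heart of mice 4 to 6 weeks old, and tumor cells were sorted from the bone lesions as CD45-iRFP+ cells. There were 4 groups of 5 libraries, and each library held RNA of cells pooled from 3 mice. Naive tumors had received vehicle. Resist tumors had received enzalutamide, an anti-androgen drug, at 30 mg/kg daily for 18 days. Resist-Mac tumors had received the same enzalutamide course with clodronate liposomes, which deplete macrophages, at 1 mg per mouse in the last 4 days. Naive-Mac tumors had no enzalutamide and were depleted of macrophages with clodronate liposomes, also at 1 mg per mouse. Naive and Resist libraries form batch 1 and share 1 table, whereas Resist-Mac libraries are batch 2 and Naive-Mac libraries batch 3, each with a table of its own.

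A ribosome is built from a small subunit, which reads the messenger RNA, and a large subunit, which joins amino acids. Each subunit holds ribosomal RNA and a fixed set of proteins, most of them present once per ribosome, so their genes are expressed at high and similar levels in growing cells. Myc is a known activator of these genes and of ribosome assembly, and mTOR signaling controls the translation of their messages through a run of pyrimidines at the 5′ end. In the mouse genome most of them have many processed pseudogenes, copies of the spliced message that can be nearly identical to the parent gene.

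The promoters were searched for that pyrimidine start. RefSeq promoter windows (GRCm38.p6, 250 bases before to 50 bases after the annotated start) were at hand for 62 of the 82 genes. A gene was counted if any of its windows matched. A C at the annotated start followed by at least 4 pyrimidines, read on the gene's strand, stood in 14 of the 62, or 22.6%. Among all 27025 genes with windows of the same length it was 3.01%. The letters CTTTCC, searched on the gene's strand and able to overlap that start, were in 38.7% of the 62 and 16% of all 27025 genes. The letters CCGGAAG, searched on both strands, were in 38.7% and 9.93%. The letters TATAAA, searched on the gene's strand, were in 9.68% and 9.77%. A match is a description of the sequence only. The windows below run from 40 bases before the start to 10 bases from it, with the pyrimidine run in capitals, for a gene that fell in each subunit, a stalk gene, the phosphorylated protein Rps6 and a retrogene.
Rpl14 (chr9:120571477-120571526, plus strand): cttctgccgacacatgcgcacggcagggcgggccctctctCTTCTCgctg
Rps18 (chr17:33955656-33955705, minus strand): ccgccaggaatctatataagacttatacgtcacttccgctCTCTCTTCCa
Rplp2 (chr7:141447611-141447660, plus strand): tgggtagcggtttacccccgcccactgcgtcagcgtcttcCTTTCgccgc
Rps6 (chr4:86857358-86857407, minus strand): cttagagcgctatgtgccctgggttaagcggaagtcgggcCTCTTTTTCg
Rps27rt (chr9:114982730-114982779, minus strand): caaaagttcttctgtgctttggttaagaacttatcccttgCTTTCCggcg

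Expression was deposited as FPKM, in which the fragments of a gene are divided by its length and by the size of the library. Counts were not given with it, so depth is unknown and no counting error can be stated. The sorted cells carried some markers of the prostate line and lacked others. Krt8 averaged 317 FPKM in naive and 190.3 FPKM in Resist tumors, while Krt18 and Cdh1 averaged under 0.2 FPKM. Tmprss2 was listed at 0 in every naive library, and Epcam was not listed. Summed over a fixed list of 7 genes, neutrophil markers ranged from 146 to 1079 FPKM in naive, 51.8 to 489 in Resist, 351 to 7726 in Resist-Mac and 54.9 to 5564 in Naive-Mac libraries. The 8 macrophage markers summed to 16 to 96.3, 3.43 to 50.8, 35.2 to 801 and 4.53 to 519 FPKM in the same order, mostly from Lyz2. The 6 listed erythroid markers summed to 53.9 to 107 FPKM in naive and 106 to 199.8 FPKM in Resist libraries, mostly from Hba-a1. Stromal markers summed to 10.6 to 15.7 and 11.3 to 32.6 FPKM, with Bglap and Sp7 at 0 in every naive library, and B cell and endothelial markers to at most 3.04 FPKM, in naive and Resist libraries. Neutrophil and macrophage ranges overlapped between naive and Resist tumors, and the part of these cells in the values below was not tested. In such bulk samples, fewer cells of a type and less RNA per cell cannot be told apart.

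In Resist vs. Naive, the ribosomal protein genes were slightly lower in resistant tumors almost throughout, and few of the differences passed the test. The log2 change was below 0 for 79 of the 81 genes tested, or 97.5%, against 43.9% of all 10118 genes tested. Its median was -0.17 for the 81 genes and 0.03 for all genes. By limma on log2(FPKM + 1), 13 of the 81 genes were lower at a Benjamini-Hochberg adjusted p under 0.05 at any fold, or 16%, beside 6.4% of all genes. None was higher at that threshold, beside 12.5% of all genes, and at an unadjusted p under 0.05, 39 were lower and 0 higher, beside 13.2% and 21.3% of all genes. With the study's fold change over 1.5 required as well, 1 gene, Rpl29, was called lower, beside 1.11% of all genes, and 0 were called higher, beside 5.25%. Every Resist library lay below every naive library for 9 of the 81 genes, or 11.1%, beside 4.34% of all genes. Among them were Rpl14, Rpl23a, Rpl27, Rpl29, Rpl31, Rps2, Rps16 and Rps18.

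**Figure D1:**
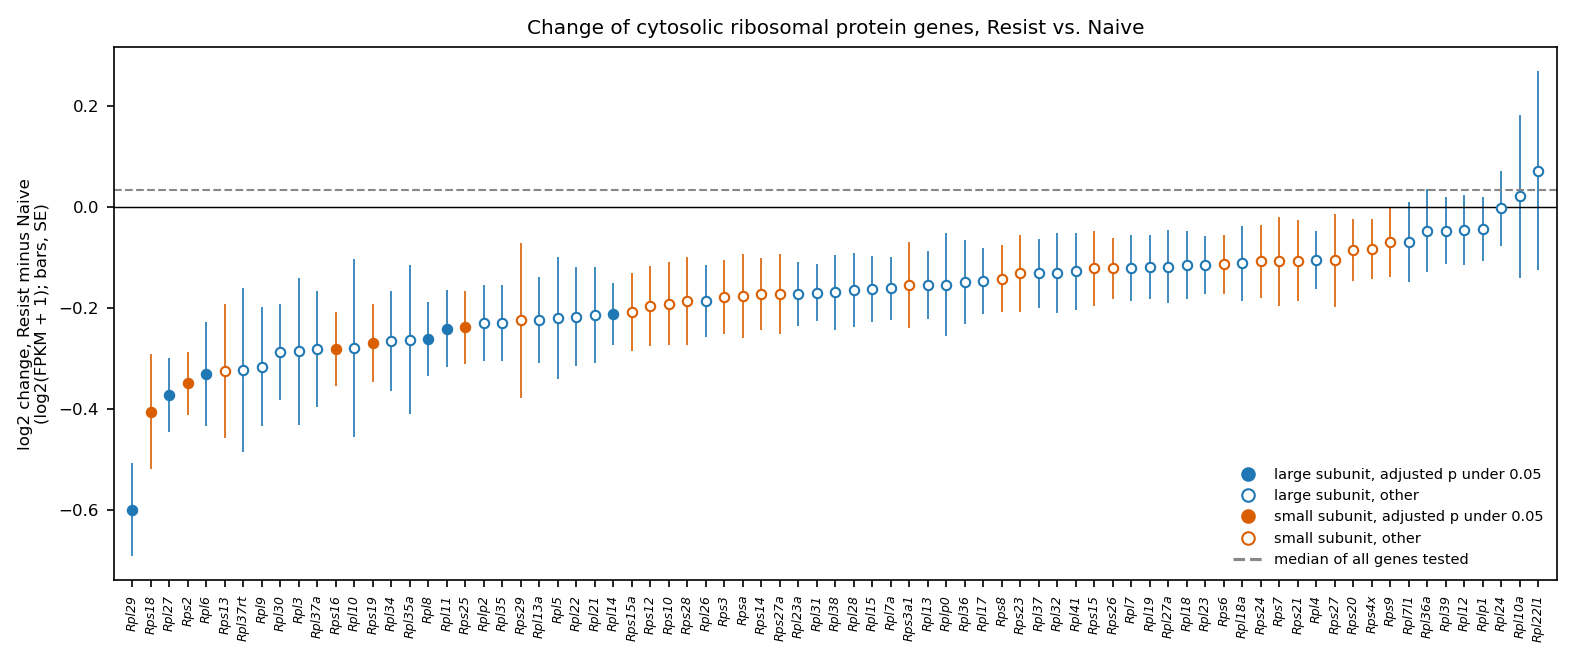
Log2 change in Resist vs. Naive, with its SE from limma, for 77 of the 81 ribosomal protein genes tested, ordered by size. Filled points passed an adjusted p of 0.05, the dashed line is the median of all genes tested (0.03), and Rps27rt, which was above 0 FPKM in 1 naive library only, is among those not drawn.

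Both subunits were lower to a similar degree. The median log2 change was -0.16 for 49 large subunit genes and -0.18 for 32 small subunit genes. Lower past the adjusted p were 6 and 7 of them, beside 6.4% of all genes tested. Small subunit genes summed to 8.27% ± 0.42 (SD, n = 5) of all FPKM in naive and 7.69% ± 0.38 in Resist libraries. Large subunit genes summed to 11.6% ± 0.43 and 10.8% ± 0.63.

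Among large subunit genes, Rpl29 fell furthest. Rpl29 (Entrez gene 19944) encodes a small basic protein of the large subunit that is also known to bind heparin. Its values were 24.2, 18.6, 22.4, 22.5 and 17.7 FPKM in the naive libraries. They were 12.1, 13.4, 14.9, 13.1 and 14.1 FPKM in the Resist libraries, so that the groups did not overlap. The log2 change was -0.60 (SE 0.09, limma adjusted p = 0.00132), only just past the 1.5-fold threshold of 0.585. Without naive library 1, 3 or 4, or without Resist library 1, Rpl29 no longer reached that fold, with log2 changes of -0.55, -0.58, -0.58 and -0.56 and adjusted p-values of 0.0045, 0.00496, 0.00465 and 0.00398.

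Rpl27 (Entrez gene 19942), a large subunit protein needed for ribosomal RNA processing, had 95.6, 95.9, 106, 90.8 and 96.3 FPKM in naive libraries. It had 76.7, 64.7, 78.7, 70.6 and 83.2 FPKM in Resist libraries, all below the lowest naive value. The log2 change was -0.37 (SE 0.07, limma adjusted p = 0.0051). Rpl6 (Entrez gene 19988) had 1814, 1682, 1572, 1664 and 1663 FPKM in naive and 1469, 1313, 1334, 1021 and 1603 FPKM in Resist libraries. Resist library 5 lay within the naive range, and the log2 change was -0.33 (SE 0.10, limma adjusted p = 0.0435). The other large subunit genes past the adjusted p were chosen for mention after their values were seen. Rpl8, a protein close to the site where peptide bonds form, changed by -0.26, Rpl11, which binds Mdm2 when ribosome assembly is disturbed, by -0.24, and Rpl14 by -0.21, with limma adjusted p-values of 0.0269, 0.0455 and 0.0316.

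Among small subunit genes, Rps2 and Rps18 fell furthest of those that passed the test. Rps2 (Entrez gene 16898), a protein near the channel where the message enters, had 256, 259, 244, 255 and 249 FPKM in naive libraries. Its Resist values were 212, 189, 202, 176 and 214 FPKM, with no overlap. The log2 change was -0.35 (SE 0.06, limma adjusted p = 0.00311). Rps18 (Entrez gene 20084), a protein of the small subunit's head that contacts the large subunit, had 64.3, 62.5, 67.5, 70.4 and 62.5 FPKM in naive libraries. Its Resist values were 60.04, 57.2, 45.8, 36.5 and 49.6 FPKM, also without overlap but more spread, and the log2 change was -0.41 (SE 0.11, limma adjusted p = 0.028).

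Other small subunit genes past the adjusted p, again chosen for mention after their values were seen, included Rps16, Rps19 and Rps25. Rps19 is a gene mutated in the inherited disease Diamond-Blackfan anemia, Rps16 reaches toward the decoding site, and Rps25 is known for its part in initiation at internal entry sites. Their log2 changes were -0.28, -0.27 and -0.24, with limma adjusted p-values of 0.0201, 0.0314 and 0.0377. In Rps16 the naive libraries ranged from 1606 to 1862 FPKM and the Resist libraries from 1282 to 1597 FPKM. In Rps19 the naive range of 965 to 1179.6 FPKM and the Resist range of 816 to 1028 FPKM overlapped. Across the 19 other settings of the fit, Rpl27, Rpl29 and Rps2 passed the adjusted p in all 19, and the other 10 genes in 4 to 15. Rpl27, Rpl29 and Rps2 are among 16 genes, described below, with a Resist-Mac mean over 10 times the Resist mean. Their ratios were 25.6, 84.4 and 27.2, and they have 12, 55 and 44 close processed pseudogenes, so their levels are uncertain.

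**Figure D2:**
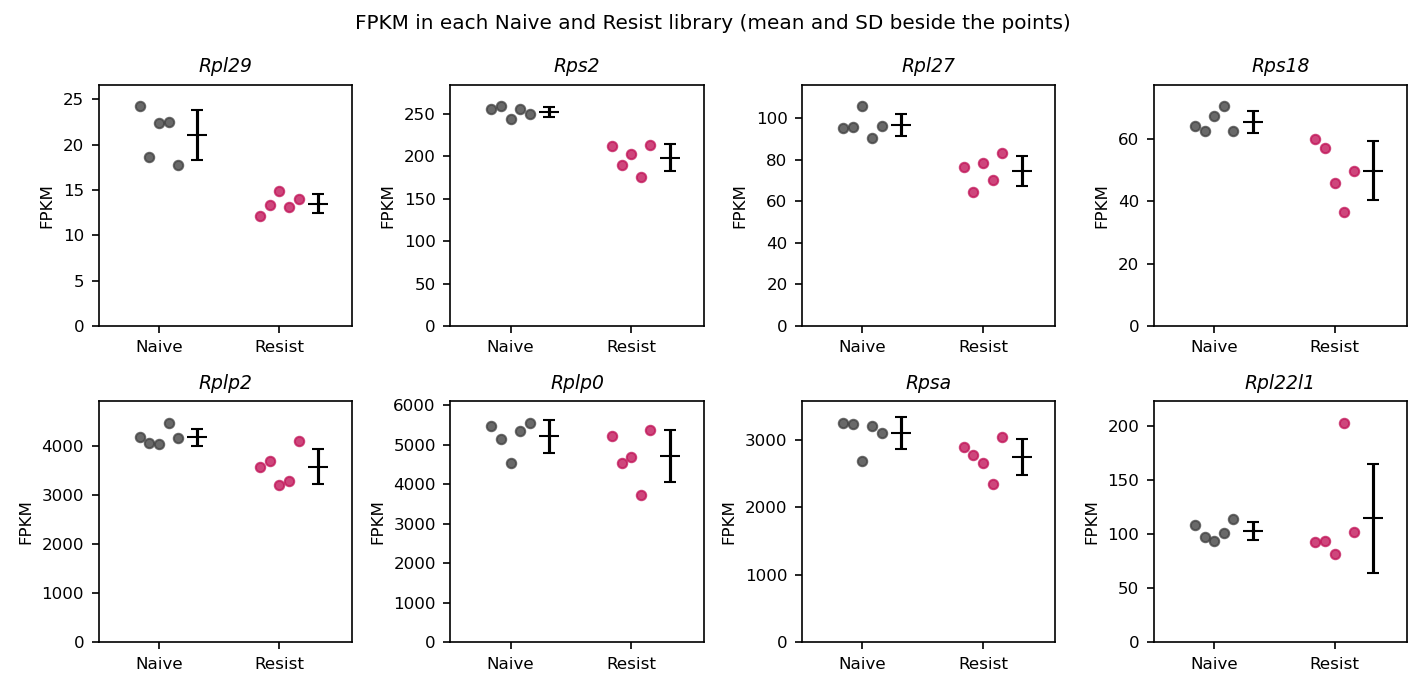
FPKM of 8 ribosomal protein genes in each of 5 naive and 5 Resist libraries (points), with the group mean and SD beside them, on axes that start at 0. Rpl29, Rps2, Rpl27 and Rps18 show no overlap between groups, whereas Rplp2, Rplp0, Rpsa and Rpl22l1 overlap, and Resist library 4 stands apart in Rpl22l1.

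The acidic stalk proteins, which recruit elongation factors to the large subunit, were among the most abundant of these messages and none passed the test. Rplp0, the base of the stalk and the gene with the highest mean FPKM, had 5466, 5159, 4528, 5357 and 5554 FPKM in naive and 5220.2, 4528, 4687, 3728 and 5388 FPKM in Resist libraries. Its log2 change was -0.15 (SE 0.10, limma adjusted p = 0.302). Rplp2 had 4188, 4065, 4039.6, 4479 and 4174 FPKM in naive libraries. Its Resist values were 3588, 3695, 3218, 3297 and 4118 FPKM, of which only that of library 5 reached the naive range, and its log2 change was -0.23 (SE 0.08, limma adjusted p = 0.052). Rplp1 averaged 3609 ± 191 and 3499 ± 169 FPKM (SD, n = 5 each), with a log2 change of -0.04.

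With Rplp0, Rplp1 and Rplp2, the 5 most abundant genes were Rps7, which is also known for its part in ribosome assembly, and Rpl41, which encodes a very short protein. Rps7 averaged 3273 ± 391 and 3027 ± 229 FPKM, and Rpl41 3060.4 ± 233 and 2802 ± 229 FPKM, in naive and Resist tumors. Their log2 changes were -0.11 and -0.13, within the spread of the libraries. Rpsa, a small subunit protein also known as a laminin receptor, had 3246, 3234, 2685, 3206 and 3101 FPKM in naive libraries. It had 2897, 2778, 2652, 2341 and 3041 FPKM in Resist libraries, overlapping the naive range through naive library 3, and its log2 change was -0.18 (SE 0.08, limma adjusted p = 0.155). Rps27a, made as a fusion with ubiquitin, averaged 961 ± 69.5 and 854 ± 84.1 FPKM, and its log2 change was -0.17 (SE 0.08, limma adjusted p = 0.14).

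The genes at the other end of the order did not pass the test. Rpl22l1, a paralog of Rpl22 that can take its place in the ribosome, had the highest log2 change, 0.07 (SE 0.20, limma adjusted p = 0.827). Its values were 108, 96.8, 93.4, 101 and 114 FPKM in naive and 92.6, 93.2, 81.2, 202 and 102 FPKM in Resist libraries. That change rested on Resist library 4, and without it the log2 change was -0.15. Rpl10a was the only other gene above 0, at 0.02 (SE 0.16), and Rpl24, Rplp1, Rpl12 and Rpl39 lay between -0.05 and 0.00. Rpl7l1, a paralog of Rpl7 with a known part in ribosome assembly, averaged 42.0 ± 3.59 and 40 ± 3.94 FPKM. Among the retrogenes, Rpl37rt averaged 2.80 ± 0.42 and 2.09 ± 0.72 FPKM, with a log2 change of -0.32 (limma adjusted p = 0.179). Rps27rt had 53.3 FPKM in naive library 4 and 0 in the other 9 libraries.

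The libraries did not share the difference equally. Relative to the naive mean of each gene, the median log2 difference of the ribosomal protein genes was 0.11, 0.01, -0.08, 0.02 and -0.05 in the naive libraries. In the Resist libraries it was -0.12, -0.19, -0.20, -0.31 and -0.02. Thus Resist library 5 lay within the naive range, and the other 4 Resist libraries lay below all 5 naive ones. Of the 81 genes tested, 74, 76, 78, 80 and 51 were below their naive mean in Resist libraries 1 to 5. In naive libraries 1 to 5 the number was 6, 37, 70, 27 and 67, so that naive libraries 3 and 5 exceeded Resist library 5. Without Resist library 5, 36 of the 81 genes were lower past the adjusted p, among them all 13 counted above, beside 9.93% of all genes.

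**Figure D3:**
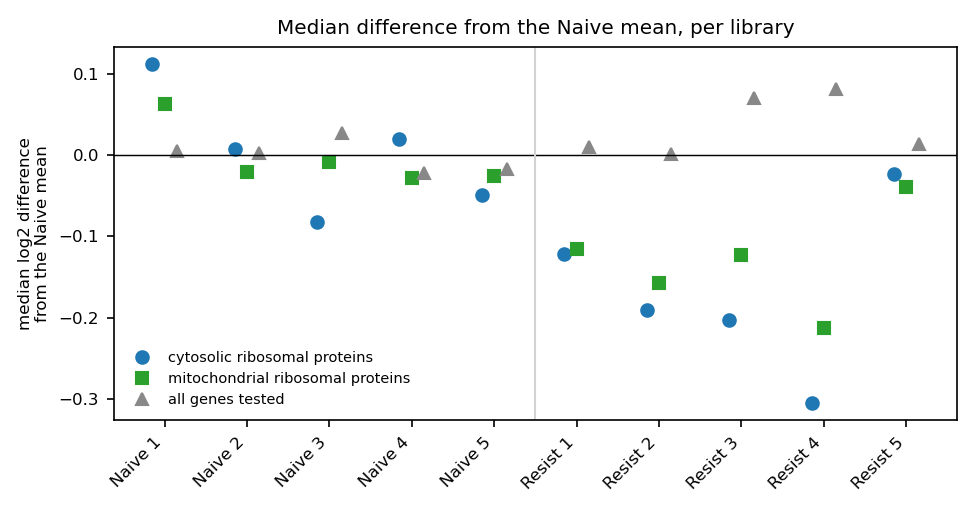
Median log2 difference from the naive mean in each naive and Resist library, for the cytosolic ribosomal protein genes (circles), the mitochondrial ribosomal protein genes (squares) and all genes tested (triangles). The circles and squares drop together in Resist libraries 1 to 4 and stay near 0 in Resist library 5, at -0.02 and -0.04.

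Other genes of the same process, taken as fixed lists, had median changes of similar size. Fau and Rack1 encode ribosomal proteins under other symbols. Fau, a fusion of a ubiquitin-like protein with a small subunit protein, had 571, 605, 478, 531 and 509 FPKM in naive and 412, 404, 397, 324 and 442 FPKM in Resist libraries, without overlap. Its log2 change was -0.45 (SE 0.09, limma adjusted p = 0.0056). Rack1, a signaling scaffold on the small subunit, had a log2 change of -0.14 and a limma adjusted p of 0.193. Of the 6 paralogs with symbols ending in l, 4 were listed and 3 tested. Rps27l, Rpl36al and Rpl3l changed by -0.15, -0.11 and -0.01, and none passed the test. Rps4l averaged 0.02 FPKM in both groups, and Rpl10l and Rpl39l were not listed.

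Mitochondrial ribosomal protein genes, whose products build the separate ribosome of mitochondria, had a median log2 change of -0.15. Of 78 tested, 69 were below 0 and 14 passed the adjusted p as lower. None was higher by limma, and at an unadjusted p under 0.05, 26 were lower and 0 higher, beside the same 13.2% and 21.3% of all genes. Of all genes tested, 43.9% were below 0, 6.4% passed the adjusted p as lower and 12.5% as higher. Of 66 ribosome biogenesis genes tested, 57 were below 0 with a median of -0.12. Among these 66, 10 passed the adjusted p as lower and 1, Taf1b, a factor of RNA polymerase I, as higher. The 4 with the lowest p were Nhp2, a small nucleolar RNA-binding protein, Eif6, which keeps the subunits apart until the large one is mature, Polr1d, a subunit shared by RNA polymerases I and III, and Emg1, which methylates ribosomal RNA. Nhp2 averaged 147 ± 5.95 and 111 ± 13.5 FPKM, Eif6 167 ± 5.12 and 138 ± 7.69, Polr1d 169.6 ± 6.39 and 126 ± 18.6, and Emg1 84.1 ± 4.69 and 66.5 ± 8.49 FPKM in naive and Resist tumors. Their log2 changes were -0.41, -0.27, -0.43 and -0.34, with limma adjusted p-values of 0.00465, 0.00594, 0.00708 and 0.0131.

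Level and transcript length moved with the difference. The 99 other genes averaging 500 FPKM or more had a median log2 change of -0.14, with 72 below 0, 27 past the adjusted p as lower and 5 as higher. The 579 other genes with transcripts under 1000 bases had a median of -0.05, with 347 below 0. Of all genes tested, 43.9% were below 0, 6.4% passed the adjusted p as lower and 12.5% as higher. Across 10071 genes the log2 change and transcript length had a Spearman rho of 0.16, which is a description over genes that share libraries. After a correction for length and GC content in each library, the median of the ribosomal protein genes was -0.14, beside -0.04 for all genes. With it, 74 of 81 were below 0, beside 56.9% of all genes, and 13 were lower past the adjusted p, beside 12.8%. After quantile normalization the median of the ribosomal protein genes was -0.06, beside -0.03 for all genes. Of the 81, 56 were then below 0, beside 55.9% of all genes. Past the adjusted p as lower were 7, beside 7.84% of all genes, and 4 of them were among the 13. On that scale, which gives every library the same distribution of levels, the median of the 81 genes was close to that of all genes.

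The levels of the genes themselves were far apart in the table of the Naive and Resist libraries. In naive tumors 45 of the 82 genes averaged at least 1000 FPKM, 18 averaged 100 to 1000 FPKM, and 19 averaged under 100 FPKM. Of the 81 genes listed for Resist-Mac, 67 averaged at least 1000 FPKM and 3 under 100 FPKM, and of the 81 listed for Naive-Mac, 71 and 3. Because each depleted group has a table and a batch of its own, macrophage depletion, batch and the making of the table cannot be told apart, and these levels are given side by side without a test. For 16 genes the Resist-Mac mean was over 10 times the Resist mean. These 16, chosen by that ratio, were Rpl3, Rpl5, Rpl10, Rpl10a, Rpl15, Rpl27, Rpl27a, Rpl29, Rpl30, Rpl31, Rpl35a, Rps2, Rps6, Rps13, Rps18 and Rps29.

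In the 16 genes the ratio of Resist-Mac to Resist ran from 15.0 to 1676. In the 64 other genes tested and listed in both tables it ran from 0.79 to 3.55, with a median of 1.68. The nearest values on either side of the threshold were those of Rps29, at 15.0, and Rps28, at 3.55. Of all 9835 genes tested and listed in both tables, 34 had a ratio over 10, or 0.346%, and the 16 are part of those 34. In Naive-Mac over Naive, 15 of the 16 were over 10, and 27 of all 10054 genes. In Resist tumors the 16 averaged 1.04 to 198 FPKM, against 397 to 5400.0 FPKM in Resist-Mac tumors. Their median went from 49.7 to 1591 FPKM, whereas that of the 64 others went from 1385 to 2263 FPKM.

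**Figure D4:**
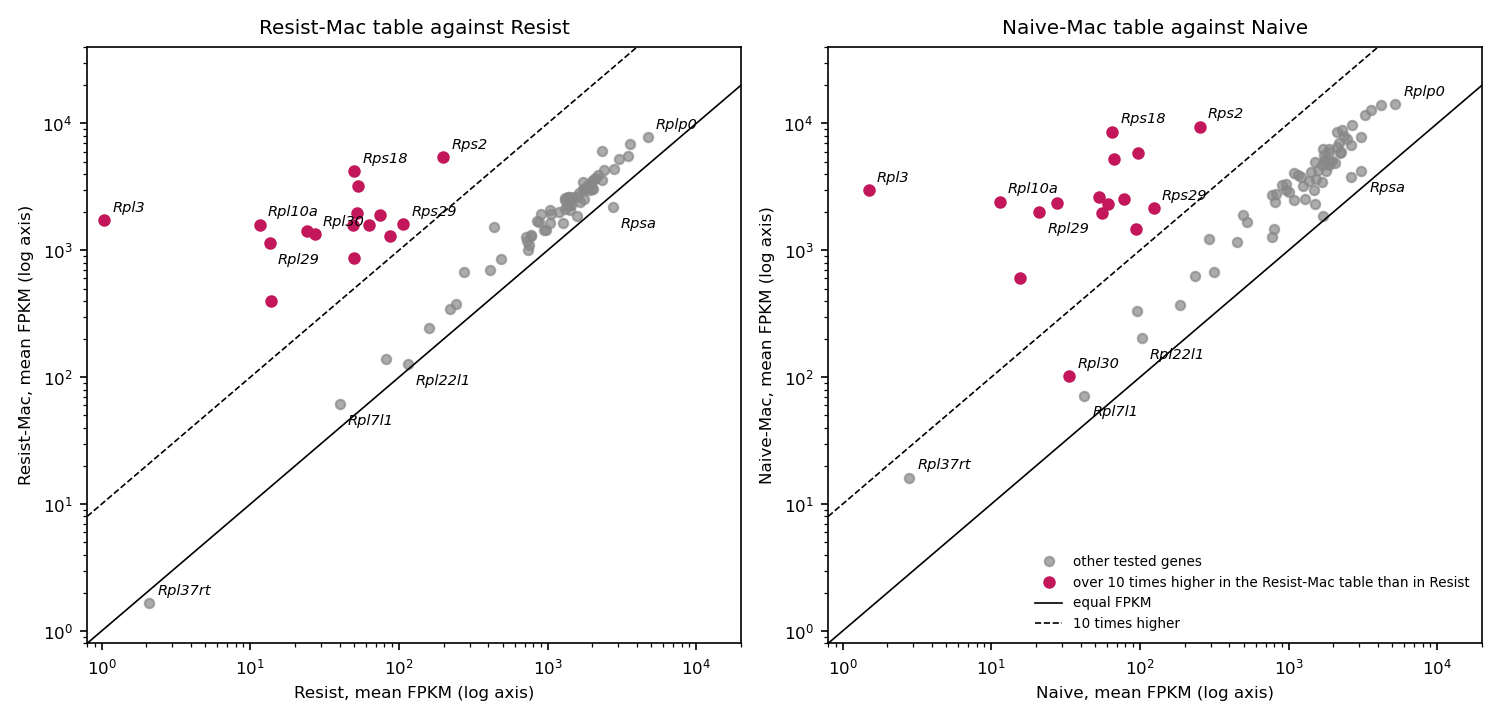
Mean FPKM of each tested ribosomal protein gene in the Resist-Mac table against Resist (left) and in the Naive-Mac table against Naive (right), on log axes. The 16 genes over 10 times higher in the Resist-Mac table lie above the dashed line on the left, the others lie below it, and Rpl30 moves down to the others on the right.

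Rpl3, a large subunit protein next to the site of peptide bond formation, showed the widest gap and was the only gene under 10 FPKM in one table and over 100 FPKM in another. It had 1.59, 1.43, 2.08, 0.89 and 1.5 FPKM in naive and 0.78, 0.81, 1.06, 1.12 and 1.41 FPKM in Resist libraries. It had 1810.3, 2153, 1863, 1443 and 1414 FPKM in Resist-Mac and 3292, 2746, 2911, 2794 and 3120 FPKM in Naive-Mac libraries. Rpl10a averaged 11.4 ± 2.55 and 11.6 ± 2.56 FPKM in naive and Resist tumors and 1589 FPKM in Resist-Mac and 2419 FPKM in Naive-Mac tumors. Rps18 averaged 65.4 and 49.8 FPKM in naive and Resist tumors, against 4184 and 8618 FPKM in Resist-Mac and Naive-Mac tumors, and Rpl29 21.1 and 13.5 against 1140.0 and 1993 FPKM. All 4 genes thus had a mean over 1000 FPKM in both depleted tables.

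Nearly all of the genes, the 16 and the others, have close copies in the genome, which the ratio did not use. All 16 had a processed pseudogene that matched at least 90% of the bases over at least 80% of their coding sequence in GENCODE, and so did 59 of 63 other genes. With a match of at least 98%, it was 16 of 16 and 45 of 63. The number of pseudogenes with a match of at least 90% had a median of 15 per gene in the 16 and 7 in the others. Its ranges were 5 to 55 and 0 to 75. At a match of at least 98%, the medians were 4.5 and 2. A pseudogene identical over the aligned stretch existed for 8 of the 16 and 9 of the 63. Rpl8, Rplp2 and Rps3 were among those with none and averaged 2058, 4189 and 818 FPKM in naive tumors. Rpl21, with 75 close pseudogenes, was not among the 16, at 315 FPKM in naive and 675 FPKM in Resist-Mac tumors.

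The likeness of gene and pseudogene is seen in 60-base stretches of coding sequence (GENCODE, GRCm38), shown for the 4 genes with the highest ratios. The base that differs is in capitals, and positions count from 1 at the first base of the gene's coding sequence. Rpl3 and Rpl3-ps1 differ at 2 of 1209 aligned bases, 1 of them C57A. Rps18 and Rps18-ps3 differ at 3 of 456, 1 of them G181C, and Rpl29 and Gm6344 at 3 of 480, 1 of them C300T. Rpl10a and Rpl10a-ps1 have no difference over 645 bases. Coordinates are those of the transcripts.
Rpl3 (chr15:80077791-80083406, minus strand): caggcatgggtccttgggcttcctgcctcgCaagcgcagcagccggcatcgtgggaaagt
Rpl3-ps1 (chrX:13202571-13203780, plus strand): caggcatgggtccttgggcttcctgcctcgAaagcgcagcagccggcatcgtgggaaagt
Rps18 (chr17:33951999-33955677, minus strand): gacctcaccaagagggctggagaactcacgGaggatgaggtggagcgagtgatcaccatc
Rps18-ps3 (chr8:107262793-107263248, minus strand): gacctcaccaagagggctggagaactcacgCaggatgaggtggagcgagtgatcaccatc
Rpl29 (chr9:106429454-106431568, plus strand): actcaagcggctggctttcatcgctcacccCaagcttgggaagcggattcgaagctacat
Gm6344 (chr13:55085777-55086259, plus strand): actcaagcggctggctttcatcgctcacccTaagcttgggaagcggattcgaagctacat
Rpl10a (chr17:28328568-28331032, plus strand): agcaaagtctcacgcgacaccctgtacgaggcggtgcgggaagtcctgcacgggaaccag
Rpl10a-ps1 (chr1:64993951-64994604, minus strand): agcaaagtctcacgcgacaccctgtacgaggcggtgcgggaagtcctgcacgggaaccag

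Some pseudogenes are listed as genes in the tables. Rpl30, one of the 16, averaged 33.3 and 27.1 FPKM in naive and Resist tumors, 1344 FPKM in Resist-Mac tumors and 102 FPKM in Naive-Mac tumors. Gm12191, a processed pseudogene that matches 99.7% of the Rpl30 coding sequence, averaged 975 FPKM over naive and Resist libraries and 3431 FPKM in Naive-Mac libraries, and was not listed in the Resist-Mac table. Rpl34-ps1, which matches 99.4% of Rpl34, averaged 1579 FPKM over naive and Resist libraries, 2470 FPKM in Resist-Mac and 4901 FPKM in Naive-Mac libraries. Of 935 close pseudogenes of these genes, 11 were listed in the Naive and Resist table, 11 in the Naive-Mac table and 2 in the Resist-Mac table. How reads that match several places were assigned is not given in the sources used here, so the level of any gene with a near-identical copy is uncertain, and the part of pseudogenes in the table differences was not tested.

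Between naive and Resist tumors, which share a table, the 16 genes and the others were both lower in Resist. Of all genes tested, 43.9% were below 0 and 6.4% passed the adjusted p as lower. The median log2 change was -0.27 for the 16, with 15 below 0 and 4 past the adjusted p (Rpl27, Rpl29, Rps2 and Rps18). For the 65 others tested the median was -0.16, with 64 below 0 and 9 past the adjusted p. The only gene past the 1.5-fold threshold, Rpl29, was 1 of the 16 and had 55 close pseudogenes. In the other tables it lay 84.4 times above Resist and 94.6 times above Naive.

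As a share of all FPKM in a library, the ribosomal protein genes held 20.8%, 20.2%, 18.7%, 20.2% and 19.2% in the naive libraries. They held 18.6%, 18.2%, 18.4%, 17.1% and 19.9% in the Resist libraries, so the groups overlapped, and the means were 19.8% ± 0.84 and 18.5% ± 1.00 (SD, n = 5 each). The share was 27.8%, 32.4%, 28.5%, 22.7% and 23.3% in the Resist-Mac libraries and 39.6%, 36.3%, 33.4%, 34.4% and 36.9% in the Naive-Mac libraries. The 16 genes held 0.20% in naive and 0.18% in Resist libraries, against 4.55% in Resist-Mac and 5.58% in Naive-Mac libraries. The other genes held 19.6%, 18.3%, 22.4% and 30.5% in the 4 groups in that order. Neutrophil markers also reached their highest sums in the depleted tables, as given above, and their part in the shares was not tested. The spread between replicates was wider there too, with a median coefficient of variation of 6.29% over genes in naive, 9.38% in Resist, 23.5% in Resist-Mac and 14.9% in Naive-Mac tumors.

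**Figure D5:**
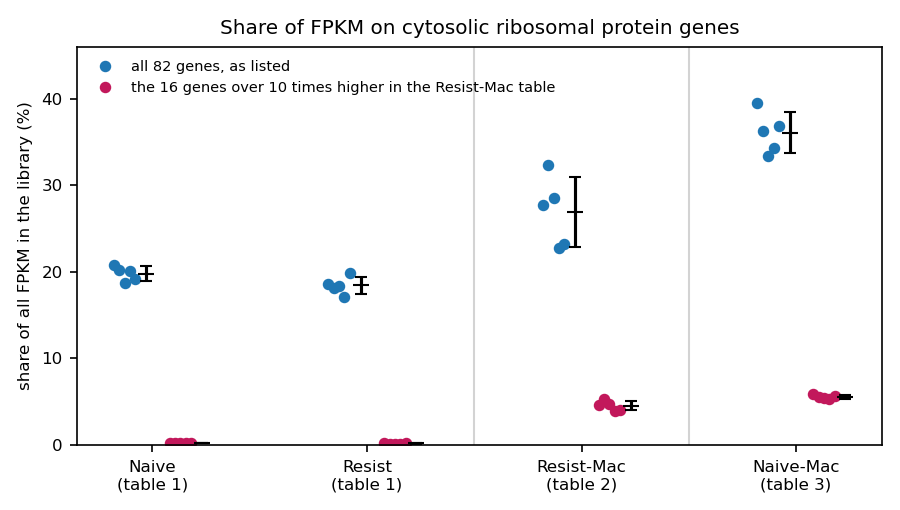
Share of all FPKM in each library held by the ribosomal protein genes (blue) and by the 16 genes over 10 times higher in the Resist-Mac table (red), with the mean and SD of 5 libraries beside the points and lines between tables. Naive and Resist shares overlap near 17% to 21%, and those of the 2 depleted tables lie higher, at 22.7% to 39.6%.

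Rplp0 was the highest of the genes in each depleted table, at 7831 FPKM in Resist-Mac and 14117 FPKM in Naive-Mac tumors. Rpsa averaged 2742 FPKM in Resist and 2189 FPKM in Resist-Mac tumors, a ratio of 0.80, where the median of the 64 genes was 1.68, and Rpl37rt was the only other gene with a ratio under 1, at 0.79. Rps12 and Rps28 had the highest ratios of the 64 below that of the 16, at 2.61 and 3.55. Rpl22l1 and Rpl7l1, the paralogs, averaged 127 and 61.1 FPKM in Resist-Mac and 202 and 71.8 FPKM in Naive-Mac tumors, with ratios of 1.11 and 1.53 in Resist-Mac over Resist. Rps27rt was not listed in either depleted table.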

How the data were processed

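RNA of sorted tumor cells was enriched for mRNA with oligo dT beads and sequenced with paired ends on a BGISEQ-500. The authors deposited FPKM per gene and library in 3 tables. In the deposited table of Naive and Resist libraries the values are log2(FPKM + 1), since turning them back gave 2 decimals, within 1e-05, for 99.9954% of 174850 values, and they were used as FPKM. The deposited Resist-Mac and Naive-Mac tables hold FPKM as such. The submitters' processing notes name Bowtie2 and mm9, and the quantification tool and annotation are not given in the sources used here. Read counts were not used here, depth is unknown, and the number of libraries limits the precision.

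Entrez identifiers were named from a RefSeq table (GRCm38.p6), which matched 16689 of 16733, 14053 of 14077 and 15827 of 15867 identifiers, after 752 BGI_novel rows of the first table were removed. Genes averaging 1 FPKM or more over the 10 Naive and Resist libraries were tested on log2(FPKM + 1) with limma 3.58.1 in R 4.3.3. The prior variance followed the mean level, and p-values were adjusted by Benjamini-Hochberg over all 10118 genes. Log2 changes are on that scale, which understates the change of low genes. Calls needed an adjusted p under 0.05 together with a change of over 1.5-fold. No test was run between tables. In simulated data with 100 genes changed at each size, limma found 84% at a log2 change of 0.7 and 92% at 1, with 1 false call. These rates are for calls that also pass the 1.5-fold threshold, with noise independent between genes. Smaller changes, such as the members' median of -0.17, were not simulated, so the rates do not describe the counts at the adjusted p alone. Close pseudogenes were found with BLAST 2.17.0 against GENCODE transcripts (GRCm38), and figures were drawn with matplotlib 3.10.9.

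The members and lists were chosen with earlier results of these data known. Genes named by rule were Rpsa, Rplp0, Rplp1, Rplp2, Rps27a, Rpl22l1 and Rpl7l1, the 6 tested members with the highest and the 6 with the lowest log2 change, the 5 highest in mean FPKM, and any member under 10 FPKM in Naive and Resist libraries and over 100 FPKM in a depleted table. Outside the members these were Fau, Rack1, the paralogs ending in l, and the 4 ribosome biogenesis genes with the lowest p. Other genes named were chosen after their values were seen, and the results of some genes are not reported here. Alternatives were other pseudocounts, filters, scalings and prior variances, a length and GC correction by a spline with 4 degrees of freedom, the replicate number as a block, and leaving out each library.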

Additional observations from a re-analysis of the deposited data

Results flagged for a closer look

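In 122 sets of 5 libraries of the named genes, 5 held a library whose gap to the others exceeded Dixon's critical value, where chance gives about 6.1. Rpl22l1 had 202.42 FPKM in Resist library 4 and 81.2 to 102 FPKM in the other Resist libraries. Rps27rt had 53.33 FPKM in Naive library 4 and 0 in the other Naive libraries. Rpsa had 2684.62 FPKM in Naive library 3 and 3101 to 3246 FPKM in the others. Eif6 had 222.38 FPKM in Resist-Mac library 5 and 177 to 188 FPKM in the others, and Emg1 had 81.52 FPKM in Resist library 5 and 60.9 to 64.0 FPKM in the others.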

How the results depend on the processing

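Of the counts, medians and shares recomputed under other settings, 79 values stayed near the reported one and 22 moved. The number of genes lower past the adjusted p, 13 in the report beside 6.4% of all genes, depended on the setting. It was 4 with no filter on low values, beside 3.02% of all genes, and 7 with quantile normalization, beside 7.84%. When 1 library was left out, it was 3 to 36. The lowest value was without Naive library 1, beside 3.72% of all genes, and the highest without Resist library 5, beside 9.93%. The called gene, Rpl29, was not called with scaling to the FPKM outside the members (0 genes), and leaving out 1 library gave 0 or 1 called gene. Quantile normalization moved the median log2 change to -0.061, and leaving out 1 library gave medians of -0.21 to -0.13. No setting gave a gene called higher or higher past the adjusted p. The causes were not tested.

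With the replicate block, 4 genes were lower past the adjusted p, all of them among the 13, beside 4.49% of all genes. Libraries with the same number did not deviate together (correlations of -0.16 to -0.03, 0 of 5 pairs over 0.1), so the numbers do not pair them.

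Of the values for named genes, 517 kept their direction and side of the threshold, 19 lost the adjusted p, 3 gained it, and 28 changed sign, in genes with reported changes of -0.14 (Rack1) to 0.07 (Rpl22l1). Rpl10a became -0.034 with median-ratio scaling and -0.069 with quantile normalization. Quantile normalization gave 0.11 for Rpl12, 0.15 for Rpl24, 0.089 for Rpl39, 0.046 for Rplp1, 0.017 for Rack1 and 0.052 for Rpl36al. The length and GC correction gave 0.064 for Rpl24, 0.044 for Rpl39 and 0.010 for Rplp1. Scaling to the FPKM outside the members gave 0.031 for Rpl24 and 0.0096 for Rpl3l, and a pseudocount of 0.1 gave 0.044 for Rpl3l. Leaving out 1 library gave -0.069 to 0.14 for Rpl10a, -0.15 to 0.17 for Rpl22l1, -0.046 to 0.032 for Rpl24 and -0.20 to 0.13 for Rpl3l.

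Without the members that have a close processed pseudogene, the share of FPKM was 0.86% in Naive, 0.77% in Resist, 0.94% in Resist-Mac and 1.27% in Naive-Mac libraries, since only few members remain. With the BGI_novel rows in the total it was 18.1% in Naive and 17.0% in Resist libraries. The unknown assignment of reads shared with pseudogenes limits every level given.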

Other observations

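The 752 BGI_novel rows of the table of Naive and Resist libraries, which carry no gene name and were left out of every comparison, held 8.77% ± 0.25 of the FPKM in Naive and 8.09% ± 0.45 in Resist libraries (SD, n = 5 each). Of them, 26 averaged at least 500 FPKM, from 538 to 3885 FPKM, which is the range of the abundant ribosomal protein genes. The median log2 difference of these 26 rows in Resist vs. Naive was -0.16, and 25 were below 0. The 99 named genes outside the members that averaged 500 FPKM or more had a median of -0.14, with 72 below 0.

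The sum of FPKM over all named genes also differed between the tables. It averaged 518574 ± 8108 in Naive, 497864 ± 12912 in Resist, 681881 ± 57613 in Resist-Mac and 941203 ± 61779 in Naive-Mac libraries (SD, n = 5 each), while 13205, 13612, 12502 and 12414 genes were above 0 on average.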
